A study of Mus musculus with 28 samples.

Results

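The kainic acid response of hippocampal CA1 tissue was measured in mice of a pair of Cre lines, and the quantity described here is the response in the CaMK2a line minus the response in the PV line. It rests on the 14 input libraries of the 28 libraries in the series, that is, on RNA of the whole lysate taken before ribosomes were pulled out. The groups were CaMK2a inputs after kainic acid (KA, 3 libraries), CaMK2a inputs after PBS (3 libraries), PV inputs after KA (4 libraries) and PV inputs after PBS (4 libraries). All animals were C57BL/6 mice aged 3 to 4 weeks, carried 1 LSL-Rpl22-HA allele, which tags a ribosomal protein where Cre is active, and carried either CaMK2a-Cre/+ or PV-Cre/+. Both treatments were followed for 6 h per the labels, whereas the deposited column names give the PBS samples an earlier time. Each CaMK2a library came from CA1 tissue of 4 pooled mice and 20 ng of RNA. Each PV library pooled 9 to 10 mice and started from 2.5 ng, so that line, pool size and RNA amount cannot be told apart. The labels do not say that libraries of a group came from separate experiments, so the spread between them may in part be technical. The comparison asks how well one tissue response repeats across the lines and RNA amounts.

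Kainic acid activates kainate-type glutamate receptors and provokes seizures, with CA3 and CA1 pyramidal neurons among the cells it drives hardest. Strong firing switches on immediate early transcription factors such as Fos and Npas4 within minutes, and these are followed by late-response genes that encode secreted factors, synaptic proteins and feedback inhibitors. Glia and blood vessels respond as well, with cytokine, heat shock and reactive astrocyte genes. Because the inputs are bulk tissue, fewer cells of a type and less RNA per cell cannot be told apart.

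The libraries held 6.06 to 11.1 M counts, and 13471 genes were listed for both lines, of which 11816 passed a filter on low counts (filterByExpr, minimum count 10) and were tested. Markers of CA1 pyramidal neurons were present: 10 of 12 listed markers were in the tables and 9 of them had counts in every library. Presence does not set CA1 apart from its neighbours. Counts in every library were also found for 13 of 13 CA2 and CA3 markers and 8 of 10 thalamus markers in the tables. The dentate granule marker Prox1 was present as well, at 219 to 324 CPM in CaMK2a KA, 175 to 250 CPM in CaMK2a PBS, 391 to 504 CPM in PV KA and 250 to 402 CPM in PV PBS libraries. The within-group spread differed between lines, with a biological coefficient of variation of 12.7% in CaMK2a inputs and 28.5% in PV inputs. PV replicates 1 to 3 alone gave 16.8%.

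PV replicate 4 lay closer to the CaMK2a libraries than to the other PV libraries after either treatment. Over 8305 genes with a mean log2 CPM of at least 3, the median absolute log2 gap between the PV KA replicate 4 library and the CaMK2a KA libraries was 0.20 to 0.29, and to PV KA replicates 1 to 3 it was 0.42 to 0.49. In PBS samples the same gaps of PV replicate 4 were 0.18 to 0.21 to the CaMK2a libraries and 0.38 to 0.41 to PV replicates 1 to 3. CaMK2a libraries and PV replicates 1 to 3 were 0.45 to 0.68 apart after KA and 0.40 to 0.51 apart after PBS. The direction was shared across genes: the deviation of PV PBS replicate 4 from PV PBS replicates 1 to 3 correlated at r = 0.80 with CaMK2a KA minus PV KA replicates 1 to 3, a pair of quantities with no library in common. The converse pair, built from KA for replicate 4 and PBS for the lines, gave r = 0.82. Genes are not independent replicates, so these values are descriptions. The mitochondrially encoded share of counts lay outside the range of the other replicates in the same libraries, at 4.83% in PV KA replicate 4 against 10.4% to 10.7% in the other PV KA libraries, and at 4.10% in PV PBS replicate 4 against 7.99% to 9.67% in the other PV PBS libraries. In this share replicate 4 was also below the CaMK2a libraries, which had 6.2% to 7.49% after KA and 6.57% to 7.35% after PBS.

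**Figure D1:**
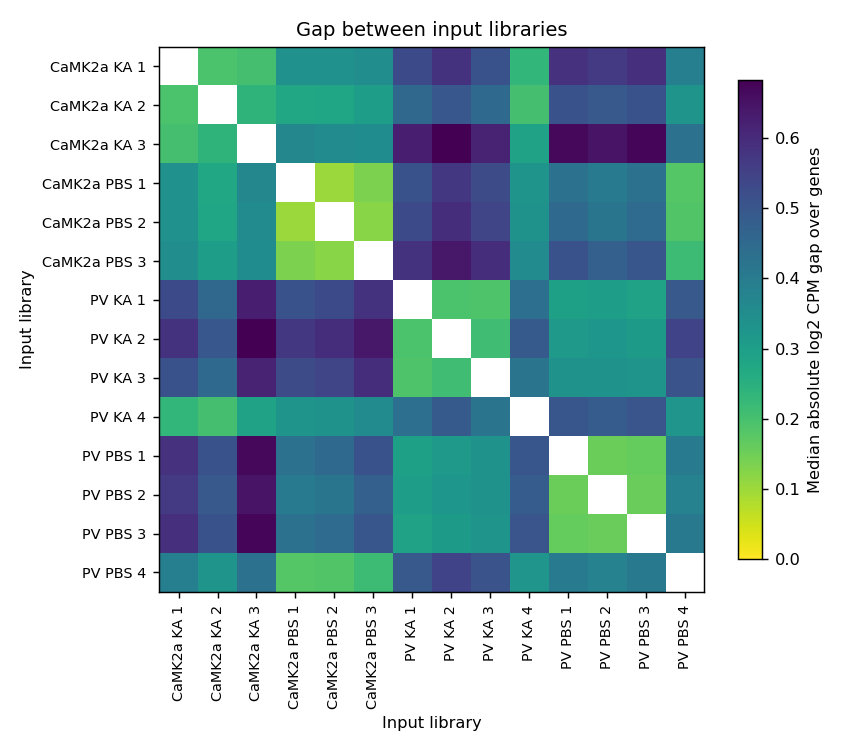
Median absolute gap in log2 CPM between each pair of input libraries over 8305 genes, with CaMK2a libraries before PV libraries and KA before PBS on both axes (darker means further apart). PV KA 4 and PV PBS 4 are lighter against CaMK2a libraries of their own treatment (0.20 to 0.29 after KA) than against PV replicates 1 to 3 (0.42 to 0.49 after KA).

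No gene passed the test for a difference between the kainic acid responses of the lines. The quasi-likelihood test of edgeR, fitted to all 14 libraries, called 0 of 11816 genes with a higher and 0 with a lower log2 fold change in CaMK2a inputs (0% in each direction, adjusted p under 0.05), with 336 genes (2.84%) at an unadjusted p under 0.05, of which 210 had the higher log2 fold change in CaMK2a inputs and 126 in PV inputs. DESeq2 called 4 genes higher for CaMK2a, limma with voom weights per line called none, and PV replicates 1 to 3 alone gave 3 calls and 1134 genes (9.68%) at an unadjusted p under 0.05, and the replicate number as a block gave 7 calls and 926 genes (7.84%). The median absolute difference of the log2 fold changes was 0.20. Its 95% confidence interval lay within 1 log2 unit of no difference for 54.7% of genes and within 2 units for 85.4%.

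Taken line by line, the response was large and shared in direction. KA against PBS in CaMK2a inputs gave 2235 genes that rose (18.9% of those tested) and 1735 that fell (14.7%). In PV inputs 914 rose (7.74%) and 387 fell (3.28%). Upper-quartile scaling turned the CaMK2a split to 1894 rises and 2295 falls. With the replicate number as a block, the PV counts were 1820 rises (15.4%) and 1637 falls (13.9%). With PV replicates 1 to 3 alone they were 1628 (13.9%) and 1135 (9.69%). Among same-numbered PV libraries only those of replicate 4 clearly deviated together. Their r between KA and PBS deviations was 0.56, against 0.12 to 0.13 for numbers 1 to 3. Leaving out 1 PV library gave 680 to 1103 rises and 199 to 660 falls in PV inputs, with 199, 200 and 218 falls without PV PBS replicates 1, 2 and 3, 253 and 209 without PV KA replicates 1 and 3, and 660 without PV KA replicate 4. Of the genes that rose in CaMK2a inputs, 867 (38.8%) were also called in PV inputs, and these were 94.9% of the PV rises. Of the genes that fell in CaMK2a inputs, 334 (19.3%) were also called in PV inputs, and these were 86.3% of the PV falls. No gene was called in opposite directions. These shares moved with the fit. With the replicate block in both lines 1535 rises and 1171 falls were shared, or 62.8% of the CaMK2a rises and 56.8% of the falls, and with PV replicates 1 to 3 it was 1274 rises (62.9%) and 870 falls (42.2%). With the block 2 genes were called in opposite directions, namely Ttr (-0.72 in CaMK2a and 0.53 in PV inputs, adjusted p = 0.034 and 0.027, edgeR, against 0.20 and not called in CaMK2a inputs without the block) and Gjc3, a connexin gene of oligodendrocytes (-0.29 and 0.27, adjusted p = 0.033 and 0.019, edgeR). Ttr marks the choroid plexus, whose share varied between libraries as given further on. The sign of the PV value matched for 96.6% of the CaMK2a rises and 97.2% of the CaMK2a falls, against 79.8% of all genes tested. The share of CaMK2a calls that were also PV calls went with the size of the change, at 8.54% for CaMK2a changes under 0.5 log2 units, 24.9% between 0.5 and 1, 51.7% between 1 and 2, 63.9% between 2 and 3 and 84.1% above 3. Across all genes tested the log2 fold changes of the lines, which share no library, had a Pearson r of 0.84 and a Spearman rho of 0.74. From the lowest to the highest quartile of expression r was 0.79, 0.89, 0.92 and 0.95, and the median absolute difference was 0.47, 0.22, 0.16 and 0.13 log2 units.

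**Figure D2:**
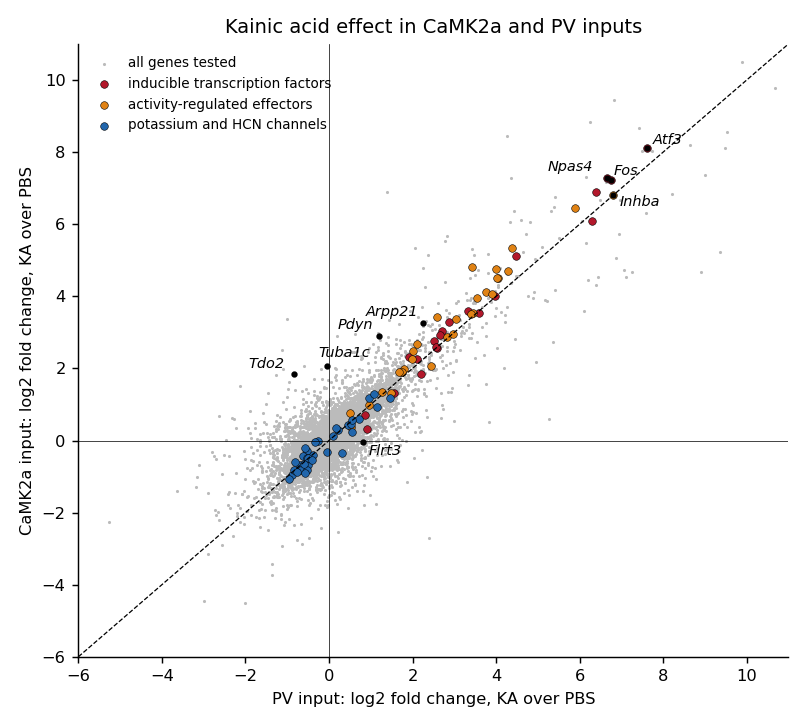
Log2 fold change of KA over PBS in CaMK2a inputs (vertical axis) against the same in PV inputs (horizontal axis) for 11816 genes, with equality as the dashed line and 3 gene lists in colour. Points gather along the line (r = 0.84), with Fos, Npas4, Atf3 and Inhba at the upper right and Arpp21, Pdyn, Tdo2 and Tuba1c above it.

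The largest shared rises were Atf3, Inhba, Npas4, Fos, Fosb, Fndc9, Ptx3 and Cyr61, taken as the 8 rises called in both lines and with a mean log2 CPM of at least 3 whose smaller log2 fold change was largest. Fos (gene ID 14281, chromosome 12, 85473901 to 85477269, 4 exons, mm10), which encodes a subunit of the AP-1 transcription factor, had 614, 415 and 517 CPM in CaMK2a KA against 2.51, 4.14 and 3.32 CPM in CaMK2a PBS libraries. In the PV line it had 227, 166, 248 and 572 CPM after KA against 3.35, 4.84, 1.86 and 1.96 CPM after PBS. The KA and PBS groups were far apart in both lines, and PV KA replicate 4 stood with the CaMK2a KA libraries rather than with the other PV KA libraries. The log2 fold change was 7.28 ± 0.19 (SE) in CaMK2a and 6.67 ± 0.47 in PV inputs, and the difference of 0.61 had a 95% interval of -0.63 to 1.84. Npas4 (gene ID 225872, chromosome 19, 4984353 to 5001929, 9 exons), a neuron-specific transcription factor induced by calcium entry, had 1158, 736 and 747 CPM in CaMK2a KA against 4.75, 5.74 and 7.46 CPM in CaMK2a PBS libraries. Its PV values were 279, 210, 240 and 820 CPM after KA against 4.16, 3.02, 2.55 and 4.57 CPM after PBS. The difference of the log2 fold changes was 0.48 with an interval of -0.80 to 1.76, and again PV KA replicate 4 alone reached the CaMK2a KA range.

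Inhba had a higher level in PV replicates 1 to 3 and nearly equal responses in both lines. This gene (gene ID 16323, chromosome 13, 16011832 to 16027723, 5 exons) encodes a subunit of activin, a secreted neuroprotective factor. It had 1513, 1340 and 1087 CPM in CaMK2a KA against 11.8, 13.3 and 9.95 CPM in CaMK2a PBS libraries, and 2657, 2860, 3025 and 1311 CPM in PV KA against 35.3, 26.1, 19.7 and 7.43 CPM in PV PBS libraries. The PV values of replicates 1 to 3 were above the CaMK2a range in both treatments, those of replicate 4 within or below it. The log2 fold changes were 6.80 ± 0.16 and 6.81 ± 0.48, with a difference interval of -1.28 to 1.27. Bdnf, which encodes a neurotrophin, had 498, 451 and 353 CPM in CaMK2a KA against 36.9, 36.5 and 39.9 CPM in CaMK2a PBS libraries, and 461, 492, 556 and 511 CPM in PV KA against 58.9, 44.4, 41.9 and 41.1 CPM in PV PBS libraries. Here replicate 4 did not stand apart, and the difference was 0.08 with an interval of -0.35 to 0.51. An exon of another gene lies opposite Bdnf, and whether the counts use strand is not stated, so reads of the pair may be mixed. The same holds for Syna, Prox1, Sorcs1, Rasl10a, Stc1 and Gbp2, described further on or above. The tightest intervals among the genes fixed for description were for Rgs2, a regulator of G protein signalling (difference 0.06, -0.31 to 0.42), and for Scg2, a secretogranin of dense-core vesicles (difference -0.03, -0.41 to 0.35).

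Further genes of the fixed list were called as rises in both lines. Log2 fold changes in CaMK2a and PV inputs were 4.71 ± 0.17 and 4.28 ± 0.21 for Nptx2, a synaptic pentraxin, 4.11 ± 0.15 and 3.77 ± 0.31 for Arc, an endosomal regulator of synaptic strength, and 3.51 ± 0.16 and 3.41 ± 0.18 for Pcsk1, a prohormone convertase. They were 6.66 ± 0.34 and 6.48 ± 0.65 for Socs3, a cytokine feedback inhibitor, and 6.37 ± 0.34 and 5.31 ± 0.51 for Lif, a cytokine of the interleukin-6 family. The neuropeptide precursors Npy and Sst rose by 1.497 ± 0.14 and 1.21 ± 0.16 in CaMK2a inputs and by 1.61 ± 0.33 and 1.22 ± 0.14 in PV inputs. All their difference intervals included 0.

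The promoters of the shared rises are shown for their letters TGACG, the core of the cyclic AMP response element through which calcium and cyclic AMP signals reach many immediate early genes. Among 7 of the 8 shared rises with a window in RefSeq (GRCm38.p6), 5 held TGACG on either strand within the 250 bases before the annotated start, and 0 held the full palindrome TGACGTCA. Of the shared falls, 1 of 6 with a window held TGACG. Among 8817 tested genes with a window, 29.2% held TGACG and 3.03% held TGACGTCA. Such matches describe letters in these windows and not binding. The windows of Fos (chr12:85473640-85473889, + strand), Npas4 (chr19:4989972-4990221, - strand) and Fosb (chr7:19310046-19310295, - strand) are printed 5′ to 3′ in the direction of the gene, with TGACG or its reverse complement in capitals.
Fos: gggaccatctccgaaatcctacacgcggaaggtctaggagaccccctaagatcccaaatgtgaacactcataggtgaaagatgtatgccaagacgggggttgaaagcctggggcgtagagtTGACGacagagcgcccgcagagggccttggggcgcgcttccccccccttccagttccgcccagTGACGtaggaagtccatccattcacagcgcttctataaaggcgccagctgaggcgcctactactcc
Npas4: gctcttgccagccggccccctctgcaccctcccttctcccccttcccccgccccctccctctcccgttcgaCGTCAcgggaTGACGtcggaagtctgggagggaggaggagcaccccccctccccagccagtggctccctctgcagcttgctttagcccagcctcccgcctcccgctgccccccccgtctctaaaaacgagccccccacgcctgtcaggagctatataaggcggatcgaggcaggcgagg
Fosb: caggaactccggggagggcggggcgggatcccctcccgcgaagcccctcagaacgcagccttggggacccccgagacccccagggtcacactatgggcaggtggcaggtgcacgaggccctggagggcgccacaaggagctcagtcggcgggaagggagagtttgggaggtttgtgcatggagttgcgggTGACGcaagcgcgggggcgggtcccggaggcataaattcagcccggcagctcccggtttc

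The shared falls were smaller than the shared rises. The 8 by the same rule were Ankrd63, Gpr12, Htr5b, Magee2, Zkscan16, Lct, Syna and Neurod6. Gpr12 (gene ID 14738, chromosome 5, 146582150 to 146585239, 2 exons), an orphan G protein-coupled receptor that raises cyclic AMP, had 11.5, 15.2 and 16.3 CPM in CaMK2a KA against 56.6, 56.2 and 69.8 CPM in CaMK2a PBS libraries, and 14.3, 9.81, 7.66 and 9.69 CPM in PV KA against 45.4, 52.9, 41.1 and 51.5 CPM in PV PBS libraries. Neurod6, a transcription factor of hippocampal pyramidal neurons and one of the CA1 markers, had 72.5, 89.5 and 66.4 CPM in CaMK2a KA against 217, 237 and 227 CPM in CaMK2a PBS libraries, and 90.4, 115, 74.9 and 65.6 CPM in PV KA against 299, 306, 294 and 257 CPM in PV PBS libraries. No KA library overlapped a PBS library of its line for either gene. The difference was 0.12 (-0.47 to 0.71) for Gpr12 and 0.17 (-0.32 to 0.65) for Neurod6. Htr5b, a serotonin receptor gene, fell by 1.99 ± 0.22 in CaMK2a inputs and by 2.67 ± 0.41 in PV inputs. The other 5 falls were between -1.77 and -2.65 in CaMK2a inputs and between -1.61 and -2.29 in PV inputs.

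Arpp21, Pdyn, Tdo2, Tuba1c and Tet3 passed the threshold for a higher response in CaMK2a inputs, and Flrt3 and mt-Nd1 for a lower one, in at least 1 alternative. They were singled out after their values were seen, and none passed in the fit to all 14 libraries. Arpp21 (gene ID 74100, chromosome 9, 112065091 to 112236023, 34 exons) encodes a cyclic AMP-regulated phosphoprotein that binds RNA. It had 2155, 1584 and 1558 CPM in CaMK2a KA against 197, 181 and 179 CPM in CaMK2a PBS libraries. In the PV line it had 883, 960, 1228 and 1292 CPM after KA against 229, 222, 232 and 240 CPM after PBS. The gene rose in both lines, and every CaMK2a KA library was above every PV KA library while every CaMK2a PBS library was below every PV PBS library. The log2 fold change was 3.25 ± 0.13 in CaMK2a and 2.24 ± 0.15 in PV inputs, a difference of 1.01 (0.58 to 1.44, unadjusted p = 0.000127, adjusted p = 1.0). Each CaMK2a KA library stood 3.07 to 3.54 log2 units above the mean of its PBS group, and the 4 PV pairs of equal replicate number gave 1.94 to 2.43, with pair 4 the highest. The difference was called in 4 of 23 alternatives and stayed positive in all of them. An exon of another gene lies opposite Arpp21.

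Pdyn (gene ID 18610, chromosome 2, 129686549 to 129699938, 5 exons), the precursor of the dynorphin opioid peptides, which dentate granule cells make in the hippocampus, had 86.0, 48.6 and 60.4 CPM in CaMK2a KA against 8.64, 9.79 and 7.46 CPM in CaMK2a PBS libraries. Its PV values were 16.7, 20.8, 16.3 and 30.8 CPM after KA against 7.27, 8.51, 7.77 and 13.2 CPM after PBS. The PBS levels of the lines overlapped and the KA levels did not. Pdyn rose by 2.90 ± 0.20 in CaMK2a inputs and by 1.20 ± 0.28 in PV inputs, and the difference was 1.71 (0.90 to 2.52). The PV pairs gave 1.05 to 1.27 log2 units and the CaMK2a KA libraries 2.47 to 3.29 above their PBS mean. It was called in 4 of 23 alternatives, with a range of 1.46 to 1.95 over them. Tdo2, a tryptophan dioxygenase gene and a dentate granule marker, had 26.3, 13.3 and 9.93 CPM in CaMK2a KA against 4.49, 5.08 and 4.15 CPM in CaMK2a PBS libraries, and 3.17, 1.99, 6.92 and 3.50 CPM in PV KA against 7.97, 9.58, 5.57 and 4.82 CPM in PV PBS libraries. It rose in CaMK2a inputs by 1.85 ± 0.30 and was -0.84 ± 0.41 in PV inputs (adjusted p = 0.23, edgeR), a difference of 2.69 (1.49 to 3.90) that was called in 2 of 23 alternatives. Most other dentate markers went the other way. Of 10 tested, 3 had a positive and 7 a negative difference, with a median of -0.21. Of all 11816 genes, 5482 had a negative difference. Among the negative dentate markers were Dsp (-1.49) and Lct (-0.75). Another gene's exon lies opposite Dsp. The log2 ratio of the summed dentate markers, KA over PBS, was 0.16 in CaMK2a and 0.14 in PV inputs. Their level was lower in the CaMK2a line, at 697 to 817 CPM in PBS libraries against 866 to 1180 CPM in PV PBS libraries, and its part in these differences was not tested.

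Tuba1c, an alpha-tubulin gene, was lower in CaMK2a PBS than in PV PBS libraries by 4.59 log2 units in size (adjusted p = 1.3e-05, edgeR). It had 9.15, 5.08 and 7.002 CPM in CaMK2a KA against 0.951, 2.63 and 1.38 CPM in CaMK2a PBS libraries, and 35.01, 28.5, 36.0 and 56.4 CPM in PV KA against 35.3, 34.99, 34.3 and 56.9 CPM in PV PBS libraries. No PV library came near the CaMK2a range, and replicate 4 was the highest PV library in both treatments. The gene rose in CaMK2a inputs by 2.08 ± 0.38, its PV value was -0.05 ± 0.24, and the difference was 2.13 (1.13 to 3.12). Tubulin genes are close in sequence, so its reads may be shared with relatives. Tet3, which encodes an enzyme that oxidises methylated DNA, had 967, 633 and 616 CPM in CaMK2a KA against 127, 125 and 124 CPM in CaMK2a PBS libraries, and 336, 329, 384 and 594 CPM in PV KA against 127, 109, 114 and 153 CPM in PV PBS libraries. It rose in both lines, every CaMK2a KA library was above every PV KA library, and the difference was 0.85 (0.25 to 1.46).

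Flrt3, an adhesion protein gene whose product binds latrophilins at synapses, had 62.2, 67.03 and 58.8 CPM in CaMK2a KA against 55.9, 64.5 and 73.8 CPM in CaMK2a PBS libraries, and 178, 164, 180 and 168 CPM in PV KA against 104, 102, 112 and 75.4 CPM in PV PBS libraries. The CaMK2a groups overlapped and the PV groups did not. Flrt3 rose in PV inputs by 0.81 ± 0.14 and was -0.04 ± 0.13 in CaMK2a inputs, a difference of -0.85 (-1.27 to -0.43). The block called its difference (-0.86, adjusted p = 0.036, edgeR). The sorting receptor gene Sorcs1 and the small GTPase gene Rasl10a also rose in PV inputs and were not called in CaMK2a inputs, with differences of -1.26 (-1.89 to -0.62) and -1.05 (-1.66 to -0.44).

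**Figure D3:**
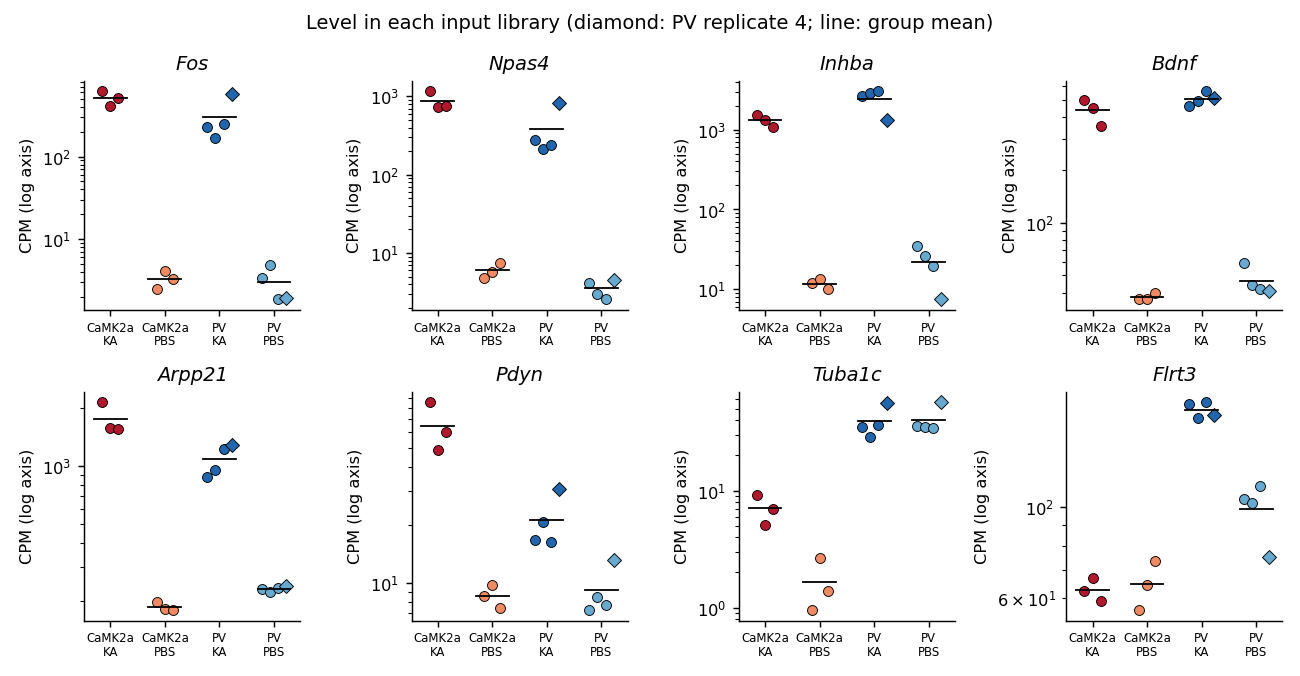
CPM (log axis) of 8 genes in each input library, with CaMK2a KA, CaMK2a PBS, PV KA and PV PBS from left to right, a line at each group mean and diamonds for PV replicate 4. Fos and Npas4 show the diamond at the CaMK2a level (572 and 820 CPM after KA), while Arpp21 and Pdyn show all PV KA libraries below the CaMK2a KA libraries.

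Among the 12 smallest unadjusted p-values of genes at or above the level minimum, chosen in the same way, the difference was also positive for Stc1, a stanniocalcin gene (1.32, 0.63 to 2.01), Ppp1r3c, a glycogen-targeting phosphatase subunit (0.66, 0.30 to 1.03), Map3k5, a stress-activated kinase (1.103, 0.49 to 1.72), Igsf9b, an adhesion protein of inhibitory synapses (0.76, 0.33 to 1.19), Pdk4, a pyruvate dehydrogenase kinase (1.53, 0.67 to 2.38), and Zfp275 (0.98, 0.42 to 1.53). Of these, Stc1, Ppp1r3c, Map3k5 and Igsf9b rose in both lines, whereas Pdk4 and Zfp275 rose in CaMK2a inputs and were not called in PV inputs, with PV values of -0.08 ± 0.27 and 0.05 ± 0.18. Of the 210 genes with an unadjusted p under 0.05 and a positive difference, 125 rose in CaMK2a inputs and 46 rose in PV inputs. Of the 126 with a negative difference, 64 fell in CaMK2a inputs and 25 rose in PV inputs. Of all genes tested, 18.9% rose and 14.7% fell in CaMK2a inputs and 7.74% rose in PV inputs. The genes were selected by the difference itself, which favours such calls, so these counts describe the selection and are no further evidence.

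The gene lists, described by the number of members called and their median beside the values of all genes tested (median log2 fold change -0.01 in CaMK2a and -0.03 in PV inputs, median difference 0.03), are given by role. The shares of all genes that rose and fell, 18.9% and 14.7% in CaMK2a and 7.74% and 3.28% in PV inputs, are the background of every count of members, with 15.4% and 13.9% in PV inputs where the replicate block is named. Where PV replicates 1 to 3 are named, the background in PV inputs is 13.9% and 9.69%. Of 22 inducible transcription factors tested, 21 rose in CaMK2a and 20 in PV inputs, with medians of 2.99 and 2.68. Egr2, a zinc finger factor, was at 5.13 ± 0.30 and 4.48 ± 0.53. Klf2 was called in neither line (0.32, adjusted p = 0.52 and 0.91, adjusted p = 0.34, edgeR). The median difference of this list was 0.21 in the fit to all libraries, 0.50 without PV KA replicate 4, and -0.01 without PV PBS replicate 4. All 29 activity-regulated effectors tested rose in CaMK2a and 28 in PV inputs, with medians of 3.38 and 2.98. The difference was positive for 24 of 29, against 6334 of all 11816 genes. Acan, the core protein of perineuronal nets, was the member with the largest difference. It had 130, 123 and 170 CPM in CaMK2a KA against 2.77, 6.59 and 6.08 CPM in CaMK2a PBS libraries, and 32.1, 29.8, 36.8 and 67.6 CPM in PV KA against 3.35, 4.09, 5.22 and 2.94 CPM in PV PBS libraries. The PBS values overlapped and the KA values did not. The difference was 1.36 (0.41 to 2.32, unadjusted p = 0.00808, adjusted p = 1.0).

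Of 13 MAP kinase feedback inhibitors tested, 12 rose in CaMK2a and 9 in PV inputs (medians 1.81 and 1.58). In PV inputs 12 rose with the replicate block and 10 with PV replicates 1 to 3. The difference was positive for 8 members and negative for 5. Spry4 was at 2.13 and 1.58 and Spred2 at 1.25 and 0.88. Dusp5, opposite which another gene has an exon, was at 1.99 and 2.56. Of 20 neuropeptide precursors, 15 rose in CaMK2a and 10 in PV inputs (medians 1.64 and 1.52), or 15 in PV inputs with the replicate block and 14 with PV replicates 1 to 3. Heat shock chaperones had a positive difference for 18 of 21 members, against 6334 of all 11816 genes. With PV replicates 1 to 3 the counts were 18 of 21 and 5360 of 11711. The median difference of the chaperones was 0.41, which stayed between 0.26 and 0.43 under the scaling, filter and library alternatives examined for lists. Of these 21, 18 rose in CaMK2a and 9 in PV inputs, or 13 in PV inputs with the replicate block and 12 with PV replicates 1 to 3. By call, 6 were lower and 1 higher in CaMK2a PBS than in PV PBS libraries, against 6.12% and 2.71% of all genes. The number of PBS calls over all genes depended on single libraries, as given further on. Hspa1a, an inducible Hsp70 gene, had 423, 227 and 703 CPM in CaMK2a KA against 5.96, 6.87 and 6.77 CPM in CaMK2a PBS libraries, and 88.7, 48.2, 192 and 226 CPM in PV KA against 4.39, 6.998, 6.61 and 5.06 CPM in PV PBS libraries. The lowest CaMK2a KA value was just above the highest PV KA value. Its difference was 1.52 (0.15 to 2.88), and that of its cochaperone gene Dnajb1 was 0.96 (0.34 to 1.59). Hspa1a and Hspa1b are nearly identical, so reads may be split between them, and another gene's exon lies opposite Hspa1a.

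Of 22 reactive astrocyte genes tested, 21 rose in CaMK2a and 20 in PV inputs, with medians of 3.03 and 3.15, among them Vim, an intermediate filament gene, at 2.36 and 1.84, and Lcn2, a secreted lipocalin, at 4.78 and 4.10. Of 28 cytokine and inflammatory genes, 24 rose in CaMK2a and 25 in PV inputs, with medians of 4.02 and 4.21, or 3.39 and 4.21 with the 4 members at 0 in all PBS libraries of a line set to a floor of 3 counts over the group. Their median difference was -0.23. Of 21 tested genes of cholesterol synthesis and uptake, 14 rose in CaMK2a and 7 in PV inputs (medians 0.53 and 0.33), with Pmvk at 1.97 and 1.41 and Cyp51, opposite which another gene has an exon, at 1.19 and 0.74. With the replicate block 10 of these 21 rose in PV inputs, and 8 did with PV replicates 1 to 3. Of 19 endoplasmic reticulum stress genes, 12 rose and 1 fell in CaMK2a inputs, and 4 rose in PV inputs (medians 0.37 and 0.24), or 10 with the replicate block and 8 with PV replicates 1 to 3. Of 19 glucocorticoid-responsive genes, 17 rose in CaMK2a and 11 in PV inputs (medians 1.35 and 1.18), or 13 in PV inputs with the replicate block and 13 with PV replicates 1 to 3. Of 15 interferon-induced genes, 2 rose and 3 fell in CaMK2a inputs and 1 rose in PV inputs (medians 0.10 and -0.15). Gbp2, a guanylate-binding protein gene, rose by 3.20 and 2.37.

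Falls outnumbered rises by count in the channel and receptor lists. Of 34 potassium and HCN channel genes, 9 rose and 18 fell in CaMK2a inputs, and 7 rose and 9 fell in PV inputs, with 16 called alike in both and medians of -0.33 and -0.40. Of 22 sodium and calcium channel genes, 1 rose and 9 fell in CaMK2a inputs and 1 rose and 4 fell in PV inputs. Scn3a, a sodium channel gene, fell by 1.41 and by 1.06. Of 17 glutamate receptor genes, 1 rose and 8 fell in CaMK2a and 3 fell in PV inputs. Of 15 GABA receptor genes, 1 rose and 7 fell in CaMK2a inputs and 1 fell in PV inputs, namely Gabra5, the alpha5 subunit of extrasynaptic receptors, at -0.90 and -0.51. Another gene's exon lies opposite Gabra5. The GABA receptor medians were -0.38 and -0.17, with a median difference of -0.22, and -0.14 to -0.37 under the alternatives examined for lists. With the replicate block, 7 GABA receptor, 9 glutamate receptor, 17 potassium or HCN channel and 11 sodium or calcium channel genes fell in PV inputs, and with PV replicates 1 to 3 alone 4, 6, 15 and 7 fell. Of all genes 13.9% and 9.69% fell in PV inputs in these fits, against 3.28% without them. Of 18 circadian clock genes, 9 rose and 4 fell in CaMK2a and 7 rose and 3 fell in PV inputs. Per2, a clock repressor, had the largest difference of that list at 0.69 (0.26 to 1.14).

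Of 22 genes of glycolysis and lactate transport, 8 rose and 1 fell in CaMK2a and 4 rose in PV inputs. With the replicate block 7 rose and 3 fell in PV inputs, and with PV replicates 1 to 3 these were 7 and 2. The lactate transporter gene Slc16a1 rose by 1.53 ± 0.13 and 1.89 ± 0.18. Of 50 cytosolic ribosomal protein genes, 11 (against 18.9% of all genes) rose in CaMK2a and 0 in PV inputs (medians 0.30 and 0.24). In PV inputs 5 rose with the replicate block and 3 with PV replicates 1 to 3. Of 54 nuclear genes of oxidative phosphorylation, 2 rose and 1 fell in CaMK2a and 0 passed in PV inputs, or 6 fell with the replicate block (13.9% of all genes fell) and 4 with PV replicates 1 to 3 (9.69% of all genes). Of 8 mitochondrially encoded genes, 0 passed in either line, with medians of 0.02 in CaMK2a and 0.28 in PV inputs. With the replicate block 7 of the 8 rose in PV inputs, and with PV replicates 1 to 3 alone 7 rose too. The subunit gene mt-Nd1 had 4797, 5590 and 6676 CPM in CaMK2a KA against 5699, 6632 and 7287 CPM in CaMK2a PBS libraries, and 11080, 10390, 10190 and 5340 CPM in PV KA against 7311, 8896, 9460 and 4390 CPM in PV PBS libraries. Each PV KA library was above the PV PBS library of its own number, and its difference was -0.50 (-1.24 to 0.23), or -0.51 and called with the replicate block (adjusted p = 0.037, edgeR).

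**Figure D4:**
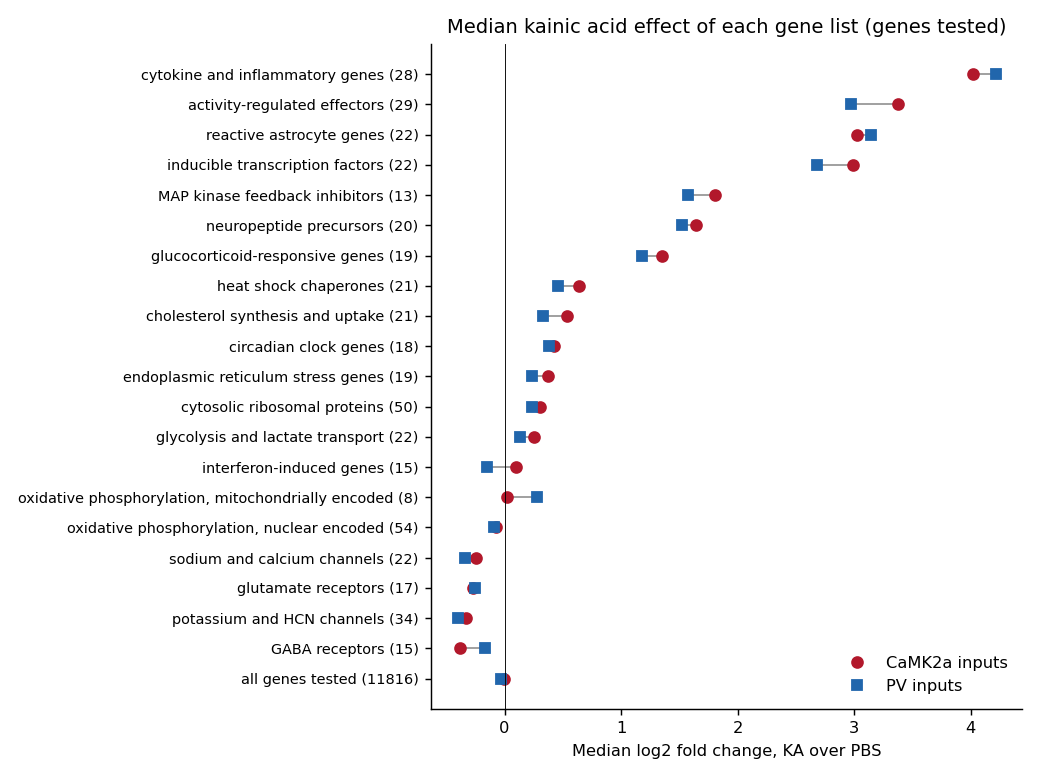
Median log2 fold change of KA over PBS for each response list in CaMK2a inputs (circles) and PV inputs (squares), with the number of genes tested in brackets and all 11816 genes at the foot. Medians run from cytokine genes (4.02 and 4.21) at the top to GABA receptors (-0.38 and -0.17) near the foot.

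The lines differed before kainic acid as well. CaMK2a PBS against PV PBS gave 320 genes that were higher (2.71%) and 723 that were lower (6.12%) in the CaMK2a line, and the total of 1043 depended on single libraries: it was 1 to 12 in both directions together when any one of the CaMK2a PBS libraries or of PV PBS replicates 1 to 3 was left out, 3862 without PV PBS replicate 4 and 5185 with PV replicates 1 to 3 alone. Markers that were lower in CaMK2a PBS libraries by call included Prox1 (log2 difference -0.64, adjusted p = 0.039) and Ugt8a, an enzyme of myelin lipid synthesis (-0.72, adjusted p = 0.024). Pvalb and Rgs14, a CA2 marker, were higher (1.23, adjusted p = 0.041 and 1.08, adjusted p = 0.029, edgeR). Their lists held calls in both directions. Of 10 PV interneuron markers tested, 1 was higher and 1 lower in CaMK2a PBS libraries. Of 13 CA2 and CA3 markers 2 were higher and 1 lower. For 10 dentate granule markers the counts were 1 and 3, and for 10 oligodendrocyte markers 0 and 2.

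The part of other cell types in the differences above was not tested, and the summed levels of their markers were as follows. Choroid plexus and ependyma markers summed to 3539, 4432 and 59.8 CPM in CaMK2a KA against 4021, 2653 and 340 CPM in CaMK2a PBS libraries, and to 1213 to 4045 CPM in PV KA against 1255 to 3066 CPM in PV PBS libraries. Replicate 3 was low in both CaMK2a groups. The list's member Ttr, a transport protein of the choroid plexus, was at 22.1 CPM in CaMK2a KA replicate 3 and 288 CPM in CaMK2a PBS replicate 3. Blood cell markers summed to 58.1 to 104 CPM in CaMK2a KA against 35.9 to 60.3 CPM in CaMK2a PBS, and to 37.7 to 80.9 CPM in PV KA against 30.7 to 44.2 CPM in PV PBS libraries. The summed CA1 pyramidal markers did not overlap between KA and PBS in either line, at 6658 to 7004 CPM in CaMK2a KA against 8003 to 9044 CPM in CaMK2a PBS, and at 7160 to 8050 CPM in PV KA against 8376 to 9710 CPM in PV PBS libraries. Of 10 CA1 markers tested, 6 fell in CaMK2a and 3 in PV inputs, or 6 in PV inputs with the replicate block and 5 with PV replicates 1 to 3. Such separation was not particular to CA1 markers. Summed markers of subiculum and neighbouring cortex, other interneurons and general GABAergic neurons were higher after KA without overlap in both lines. The first of these had 1043 to 1384 against 749 to 792 CPM in CaMK2a inputs, and 1071 to 1312 against 724 to 860 CPM in PV inputs. How often lists separate by chance was not tested. Oligodendrocyte precursor markers did not overlap between the lines, at 913 to 979 CPM in CaMK2a KA, 944 to 968 CPM in CaMK2a PBS, 1131 to 1293 CPM in PV KA and 1205 to 1426 CPM in PV PBS libraries. Among general GABAergic markers Gad1, which makes GABA, rose in CaMK2a inputs by 0.78 ± 0.10 and was 0.37 ± 0.11 in PV inputs (adjusted p = 0.061, edgeR), a difference of 0.41 (0.11 to 0.71).

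**Figure D5:**
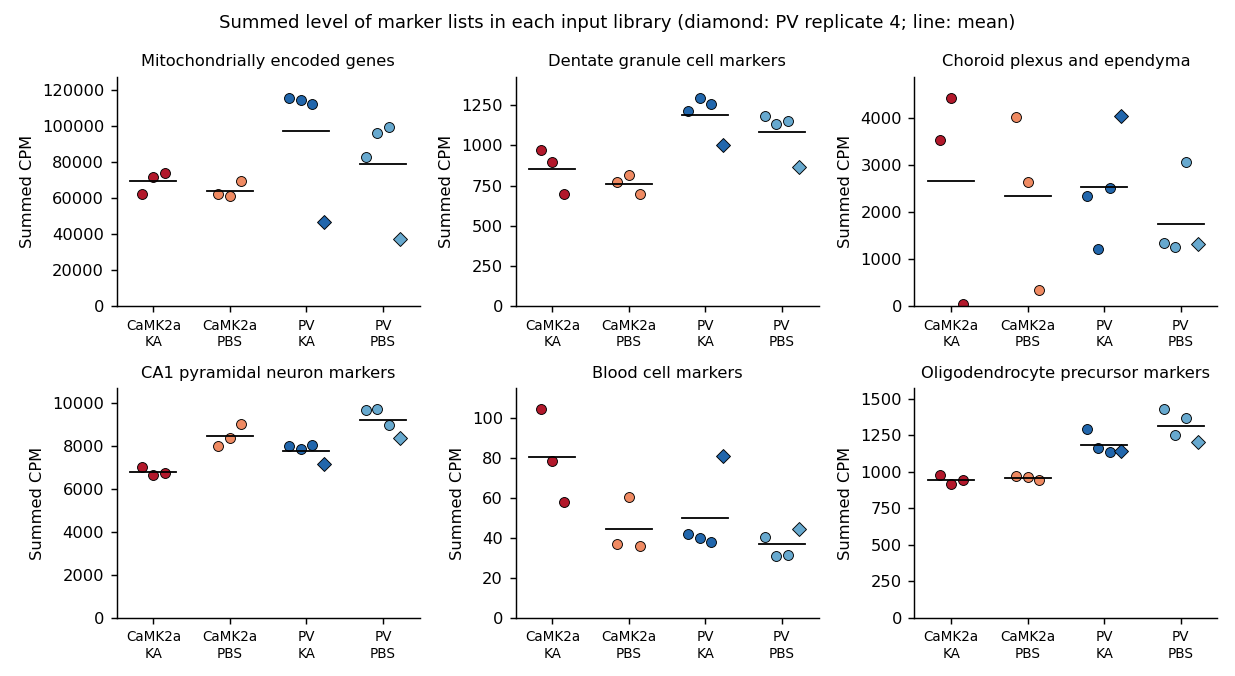
Summed CPM of 6 gene lists in each input library, from CaMK2a KA on the left to PV PBS on the right, with lines at group means and diamonds for PV replicate 4. The diamonds lie below the other PV libraries for mitochondrially encoded genes, and CaMK2a replicate 3 is near the floor for choroid plexus markers (59.8 CPM after KA).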

How the data were processed

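Per the labels' protocols, RNA of the lysates was amplified by single-primer isothermal amplification and sequenced as 75-base single-end reads. Per the submitters' processing notes BWA, edgeR and the mm10 (GRCm38) build were used. The authors deposited raw counts per gene, and RPKM values that were not used here. Whether the counts use strand is not given in the sources used here. The CaMK2a and PV tables were joined on gene name.

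The 14 inputs were fitted together in edgeR 4.0.16 (R 4.3.3) with TMM factors, filterByExpr (minimum count 10) and the quasi-likelihood test for the difference of responses and for PBS baselines. Each line was fitted alone for its own response, with Benjamini-Hochberg adjustment over all genes at 0.05. Standard errors came from the F statistic and 95% intervals from the t quantile. Library values are CPM. The script was tested on simulated data. Alternatives were DESeq2 1.42.0, limma 3.58.1 with voom, other scaling factors, filters, a shared spread, PV replicates 1 to 3, a replicate block and each library left out. A replicate block in PV alone was chosen after seeing the data. Same-numbered PV libraries had r = 0.12, 0.13, 0.13 and 0.56 between KA and PBS deviations from group means, and the numbers were taken as pairs in PV. Libraries 1 to 3 of different numbers correlated alike (0.07 to 0.18), and pair 4 alone stood apart, at -0.21 to -0.30 with the others. In CaMK2a inputs the values were 0.10, 0.07 and 0.24.

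Named genes were those called for the difference, the 8 shared rises and 8 shared falls with the largest smaller effect, 20 fixed genes and up to 4 members per list with the largest difference. As none was called, the 12 smallest unadjusted p-values and the genes called in an alternative were added. Members and lists were chosen with earlier results of these data known. Counting error alone does not cover amplification.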

Additional observations from a re-analysis of the deposited data

Results flagged for a closer look

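In 126 sets of 4 PV libraries, 15 held a library far from the other 3 by Dixon's test, where chance gives about 1 in 20. The sets come from the same libraries and some contain others, so they are not independent and the count is a description. Among PV KA libraries, replicate 4 had a mitochondrial share of 4.83% (others 10.4% to 10.7%), mt-Nd1 at 5340 CPM (others 10190 to 11080), summed blood cell markers at 80.9 CPM (37.7 to 42.0), Atf3 at 123.7 CPM (67.2 to 72.4), Npas4 at 820.4 CPM (210.4 to 278.7) and Npy at 111.7 CPM (48.5 to 55.1). Stc1 was at 73.0 CPM in PV KA replicate 3 (51.6 to 52.9 in the others).

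Among PV PBS libraries, replicate 4 had summed dentate granule markers at 865.6 CPM (others 1134 to 1180), Arc at 78.5 CPM (53.1 to 57.1), Npy at 35.8 CPM (15.8 to 17.6) and Tuba1c at 56.9 CPM (34.3 to 35.3). PV PBS replicate 3 had summed choroid plexus markers at 3066 CPM (1255 to 1355), Ttr at 2844 CPM (1123 to 1248) and Htr5b at 15.7 CPM (16.9 to 17.1). Cyr61 was at 2.77 CPM in PV PBS replicate 1 (1.86 to 1.94 in the others). Of the 15 sets, 10 concern replicate 4. The part of these libraries in the differences was not tested beyond the values without replicate 4.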

How the results depend on the processing

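The difference had 0 calls higher and 0 lower with each library left out. Higher calls were 4 with DESeq2, 3 with PV replicates 1 to 3, 5 with the replicate block and 3 with the block in PV alone, and lower calls were 2 with the replicate block. The other scalings, filters and voom gave 0. With a shared spread CaMK2a inputs had 1293 rises and 674 falls and PV inputs 905 falls. PV inputs had 1628 rises and 1135 falls with replicates 1 to 3, 1820 and 1637 with the replicate block, and 684 falls with DESeq2. Leaving out a library gave 1746 to 2375 rises and 1154 to 1960 falls in CaMK2a inputs (lowest without CaMK2a PBS replicate 2), and 680 to 1103 rises and 199 to 660 falls in PV inputs (rises lowest without PV PBS replicate 2, falls lowest without PV PBS replicate 1, both highest without PV KA replicate 4). The PBS comparison of 1043 calls gave 2244 with DESeq2, 2275 with voom, 5185 with PV replicates 1 to 3 and 1 to 3862 with a library left out. The correlation of effects was 0.64 without a filter and 0.77 to 0.84 with a library left out. Ttr in CaMK2a inputs was -0.72 with the replicate block (called) against 0.20 without it (not called). The cause was not tested. Of 4111 values for named differences under the alternatives, 4094 stayed on the same side of the threshold and 17 passed it, and 101, from 39 of 179 genes and none called, had the other sign. Low counts limit the intervals of the lowest quartile, where the median standard error was 0.76.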

Other observations

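Ddx3y, the Y-linked gene of its list in the tables, had 21.1, 35.5 and 19.1 CPM in CaMK2a KA against 5.53, 20.2 and 10.9 CPM in CaMK2a PBS libraries, and 44.4, 59.1, 35.8 and 19.5 CPM in PV KA against 22.4, 19.5, 12.99 and 14.1 CPM in PV PBS libraries. It rose by 1.05 ± 0.32 in CaMK2a inputs and by 1.20 ± 0.31 in PV inputs, though KA and PBS libraries overlapped in both lines. The rise was called in 19 of 24 alternatives in CaMK2a and in 18 of 24 in PV inputs. The sex of the pooled mice is not given here, so the number of males per pool and a change in expression cannot be told apart.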
